A study of Mus musculus with 10 samples.

Results

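The genes of 4 NF-κB subunits, Nfkb1, Nfkb2, Rel and Relb, were examined for binding of RelA and of the glucocorticoid receptor (GR) in mouse macrophages. All regions that overlapped a fixed window on build mm9 were taken. The windows were chromosome 3, 135200000 to 135410000 (Nfkb1, 210 kb), chromosome 19, 46340000 to 46425000 (Nfkb2, 85 kb), chromosome 11, 23590000 to 23720000 (Rel, 130 kb) and chromosome 7, 20150000 to 20260000 (Relb, 110 kb). They held 25 of the 115077 regions in the 10 deposited lists. The input DNA list, 765 regions long, had 0 in the windows, and none of the 25 overlapped one of its regions. The share of the whole RelA and GR lists that overlapped input was not counted, so this absence is not particular to these loci. Regions sharing at least 1 bp were joined into 14 sites, of which 6 lay in the Nfkb1 window, 2 in the Nfkb2 window, 5 in the Rel window and 1 in the Relb window. RelA and GR met at 4 sites, 2 sites held RelA without GR, and 8 held GR without RelA.

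The cells were bone marrow derived macrophages, a primary culture from mice of strain C57BL/6J. Chromatin immunoprecipitation followed by sequencing was done for RelA in 7 libraries. Dexamethasone (Dex), a synthetic glucocorticoid, was given 3 h before lipopolysaccharide (LPS) in 3 of them, which had 0, 3 and 8 h of LPS. A further library had 8 h of LPS with Dex given late, at an hour that the labels do not state. The other 3 had 0, 3 and 8 h of LPS and no Dex. GR was precipitated in 2 libraries, from cells with LPS and Dex and from cells with Dex, with no times in the labels. An input library came from untreated cells. Every condition was 1 library, so no test between conditions was possible, and no value below has a replicate error. The labels state neither the doses of LPS and Dex nor whether cells of several mice were pooled. Bound regions carry no expression values, so the cell type could not be checked against marker genes.

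NF-κB factors are dimers of proteins that share the Rel homology domain, which binds DNA and joins the partners. RelA, Rel (the c-Rel protein) and RelB carry a transactivation domain. Nfkb1 encodes p105, which is processed to p50, and Nfkb2 encodes p100, which is processed to p52. Both precursors hold NF-κB in the cytoplasm through ankyrin repeats. LPS activates Toll-like receptor 4 of macrophages, I-κB proteins are degraded, and RelA, mostly with p50, enters the nucleus. Several subunit genes are themselves known NF-κB targets. GR, once bound by Dex, acts on chromatin both at its own DNA motif and at sites of other factors.

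Promoter sequences are shown for Nfkb2 and Rel because the promoter table held only these genes of the 4 and the NF-κB motif can be read in the letters. They are RefSeq sequences of build GRCm38.p6, each from 250 bases before to 50 bases after a transcript start, 5′ to 3′ on the gene's strand (plus for Nfkb2 on chromosome 19, minus for Rel on chromosome 11). The promoter table was matched by symbol for Nfkb2, with 3 starts, and for Rel, with 1 start. It held no promoter of Nfkb1 or Relb, whose windows also had RelA regions, so these were not searched for motifs. Capitals mark matches on either strand to the NF-κB consensus.
Nfkb2, start 1: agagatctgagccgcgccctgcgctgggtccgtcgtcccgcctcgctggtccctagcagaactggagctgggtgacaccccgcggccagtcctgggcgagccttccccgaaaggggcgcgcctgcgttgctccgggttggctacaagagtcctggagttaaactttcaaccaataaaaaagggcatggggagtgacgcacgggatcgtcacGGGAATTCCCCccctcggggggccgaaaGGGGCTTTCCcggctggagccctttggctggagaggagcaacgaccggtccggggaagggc
Nfkb2, start 2: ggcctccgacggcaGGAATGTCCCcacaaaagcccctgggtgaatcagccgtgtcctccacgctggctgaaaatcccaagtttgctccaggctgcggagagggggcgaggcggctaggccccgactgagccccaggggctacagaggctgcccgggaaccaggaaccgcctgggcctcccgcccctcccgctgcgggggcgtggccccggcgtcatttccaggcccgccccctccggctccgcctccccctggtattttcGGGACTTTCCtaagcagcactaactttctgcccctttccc
Rel: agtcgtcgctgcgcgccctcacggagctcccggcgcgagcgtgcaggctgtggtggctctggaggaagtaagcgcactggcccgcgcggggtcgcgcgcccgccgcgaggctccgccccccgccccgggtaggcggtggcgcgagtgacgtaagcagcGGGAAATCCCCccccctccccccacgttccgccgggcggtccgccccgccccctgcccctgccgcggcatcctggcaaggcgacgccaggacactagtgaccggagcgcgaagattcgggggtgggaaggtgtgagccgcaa
The first Nfkb2 start had the palindrome GGGAATTCCC from -39 to -30 and GGGGCTTTCC from -11 to -2, counted in bases from the start. The second had GGGACTTTCC from 11 to 20, and GGGACATTCC on the opposite strand from -236 to -227. Its letters from 11 to 20 also fall into the third start's promoter, which overlaps it and is not printed. The Rel promoter had GGGAAATCCC from -92 to -83, a stretch that also matches on the opposite strand. A match to this consensus was found in 4.51% of the 32841 promoters of the table and in all 4 of these. The genes were shown for this motif, so the count of 4 is not a test against that share. Nor are the 4 separate, since the only match of the third Nfkb2 start is the one it shares with the second. The looser motif GGGNNNNNCC, searched on both strands and containing the consensus, was in 50.8% of all promoters and is therefore not marked. The AP-1 motif TGANTCA (7.81% of promoters) matched the second Nfkb2 start from -210 to -204, and the GR palindrome GNACANNNTGTNC (0.475%) matched none of the 4. A match is a description of the letters, and since the regions are placed on mm9 the promoters were not set against them by position.

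LPS without Dex was profiled in time. The library titled 0 h of LPS carries 3 h, with no mention of LPS, in its deposited name, and it is called 0 h here after its title. No RelA region was listed in any of the 4 windows at 0 h, 6 were listed at 3 h and 4 at 8 h. The 6 at 3 h were 2 in the Nfkb1 window, 1 in the Nfkb2 window, 2 in the Rel window and 1 in the Relb window. At 8 h the Nfkb1 window again held 2, the Nfkb2 and Rel windows 1 each and the Relb window none. The lists of all regions held 83, 5017 and 1890 at these times, and 1.06% of the 3 h list met a region of 0 h, so that 0 of 6 at the subunit loci lies near the share of the whole list. A list holds regions above the authors' unstated threshold, and a site missing from it may still have been bound below that level.

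The stronger Nfkb1 site, chr3:135333235-135334202, was among the densest of the 3 h list. Its highest tag density, the peak height on the authors' scale, was 89.2 at 3 h and 66.2 at 8 h, and no region was listed at 0 h. It ranked 33rd of 5017 by tag density at 3 h and 80th of 1890 at 8 h. The authors' z-score of the site was 60.4 at 3 h and 42.3 at 8 h. Scores and densities are the authors' own values per region, and how they were scaled between libraries is not known.

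A weaker Nfkb1 site, chr3:135302927-135303679, lay 30.4 kb away, measured between centres. Its tag density was 40.9 at 3 h and 29.1 at 8 h, with scores of 25.3 and 20.0. It ranked 402nd at 3 h and 701st at 8 h. The 2 sites therefore stood in the same order at both times. Counting all 4 windows, 4 of the 6 RelA regions at 3 h had another within 50 kb, against 58.9% of the 3 h list. In the order of protein-coding genes on GRCm38.p6, Nfkb1 lies between Manba and Slc39a8, and regions were assigned by window and not to a gene.

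The Nfkb2 window held 1 RelA site, chr19:46378659-46380373, whose breadth set it apart from most regions. It was 1714 bp wide at 3 h, where 99.4% of the list was narrower, and 1551 bp at 8 h, where 99.9% was narrower. Its tag density was 76.8 at 3 h and 54.9 at 8 h, ranks 55 of 5017 and 149 of 1890. Its score at 3 h, 60.7, was the 37th of the list, next to that of the stronger Nfkb1 site, the 38th. The nearest other RelA region at 3 h was 664.9 kb away, whereas over all 3 h regions the median distance to the nearest was 29.4 kb. Neighbours of Nfkb2 in the gene order are Gbf1 and Psd.

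The Rel window held 2 RelA sites at 3 h, 17.0 kb apart. At chr11:23671024-23671816 the tag density was 34.9 at 3 h and 26.0 at 8 h, with scores of 25.9 and 16.5. At chr11:23654072-23654765 it was 24.2 with a score of 17.0 at 3 h, and no region was listed at 8 h. The weaker of the 2 sites at 3 h was thus the one missing at 8 h. Rel stands between Pus10 and Papolg in the gene order.

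Relb had the weakest RelA region of the 4 windows, chr7:20214732-20215169, listed at 3 h alone. Its tag density was 17.4, lower than the list's median of 18.5, and its score of 9.94 ranked 4041st of 5017, near the lowest score of that list, 8.88. The region was 437 bp wide, and 31.7% of the list was narrower. The 8 h list began at a score of 10.9, above the score that this region had at 3 h. How scores compare between the lists is not known, and any part of this in the absence at 8 h was not tested. Relb lies between Clasrp and Clptm1.

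**Figure D1:**
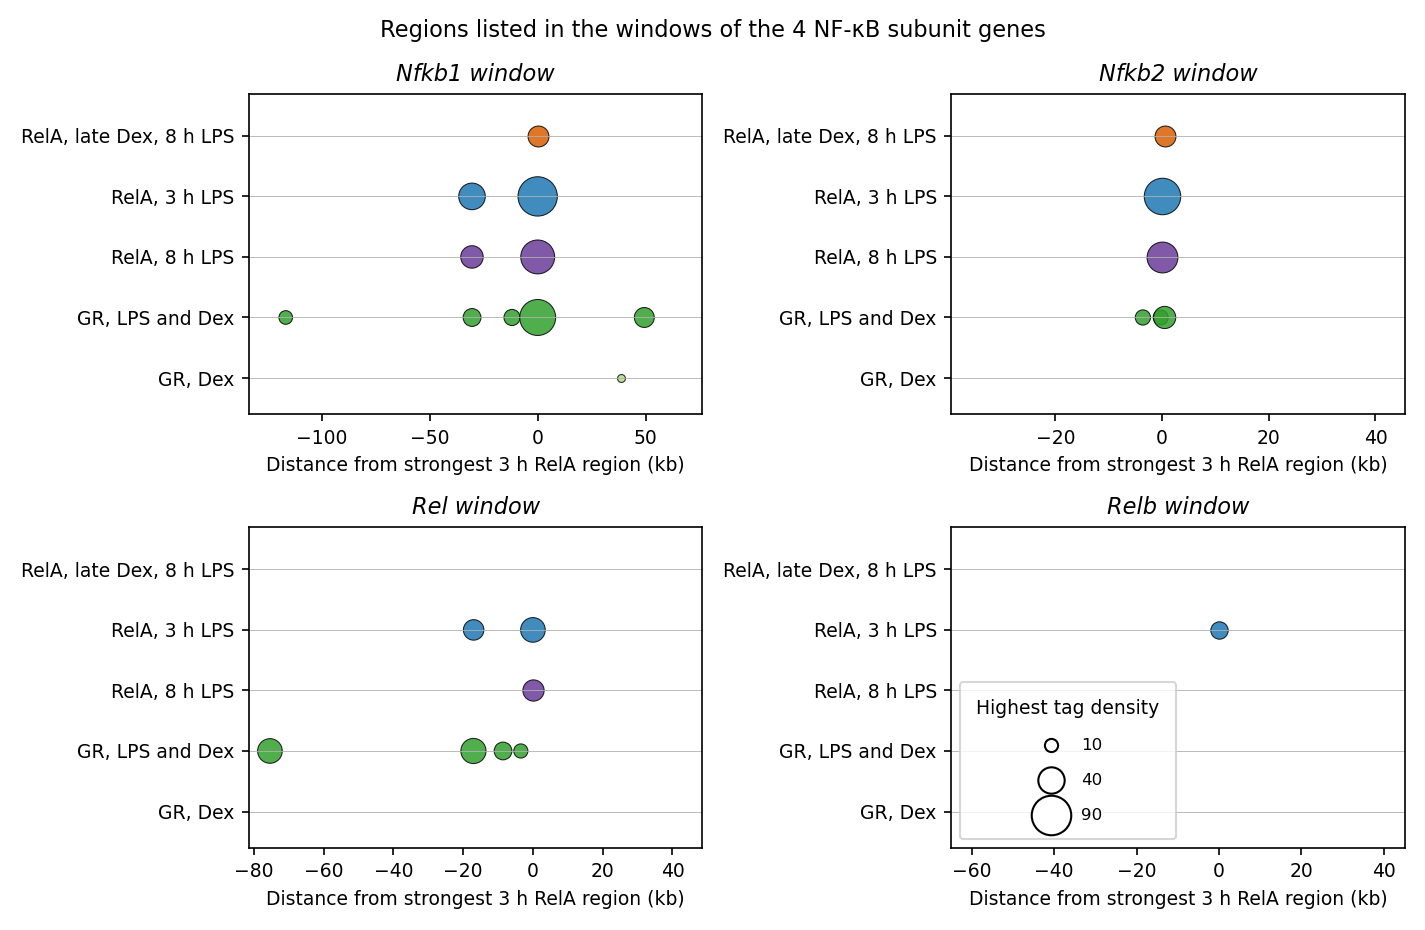
Position of every listed region as distance in kb from the centre of the strongest 3 h RelA region of each window, with circle area proportional to the highest tag density on the deposited scale. Each row is 1 list, and the 5 lists not drawn (3 RelA lists with Dex pretreatment, RelA at 0 h and input) held no region in any window. The largest circle is the stronger Nfkb1 site at 3 h (89.2), and the Relb window holds a single RelA region (17.4).

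Of the 6 RelA regions at 3 h, 4 were listed again at 8 h, against 31.2% of the whole 3 h list. The 4 that stayed were the 4 with the highest 3 h scores, from 25.3 to 60.7, and all fell in the highest quintile of the list by score, where 76.9% of 1004 regions were listed at 8 h. The Rel region with a score of 17.0 fell in quintile 4, with 37.9% listed, and the Relb region in the lowest quintile, with 6.97%. The regions listed again and those missing at 8 h were thus divided by their 3 h score. All 4 regions of 8 h lay wholly inside their 3 h region, as did 62.0% of the 1586 regions of 8 h that met one of 3 h. Their centres had moved by 7.0 to 50.5 bp.

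Tag density was lower at 8 h than at 3 h by a like factor at the 4 sites. The ratio of 8 h to 3 h was 0.743 at the stronger and 0.711 at the weaker Nfkb1 site, 0.715 at Nfkb2 and 0.745 at Rel. Over all 1564 shared regions the median ratio was 1.03, with quartiles of 0.788 and 1.28. Within the highest quintile by 3 h score the median was lower, 0.861, with quartiles of 0.685 and 1.10. The 4 ratios lie between the lower quartile and the median of that quintile, where 28.9 to 34.1% of its 772 shared regions had a lower ratio. Each ratio carries the unknown scaling of both libraries.

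**Figure D2:**
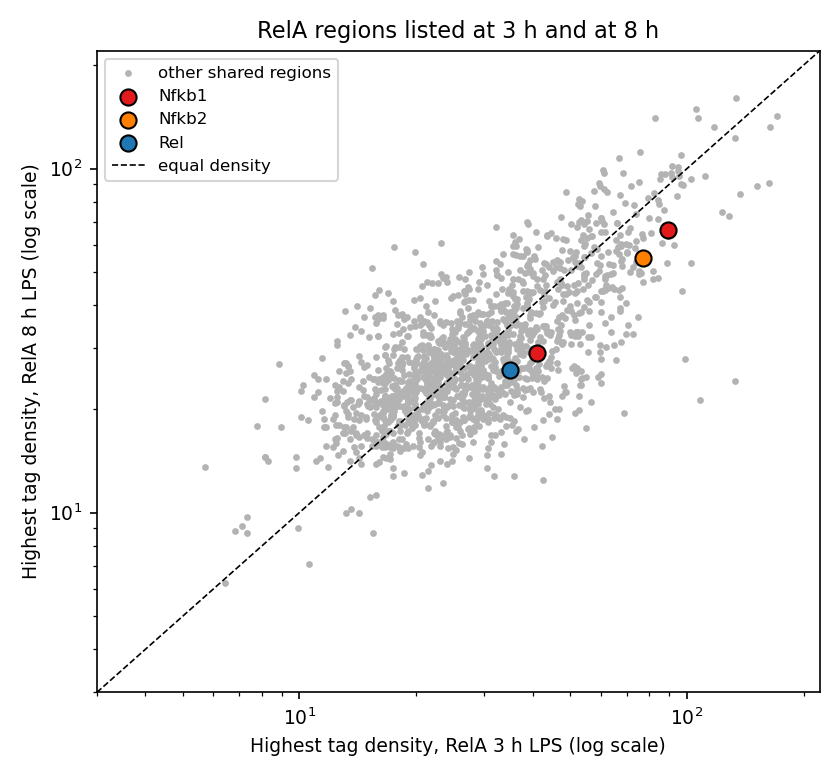
Highest tag density at 3 h (x axis) and 8 h (y axis) of LPS for the 1564 RelA regions of 3 h that were also listed at 8 h, both axes on a log scale. The dashed line marks equal density, and the Nfkb1, Nfkb2 and Rel sites lie under it at ratios of 0.711 to 0.745.

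Dex given 3 h before LPS left no RelA region listed in any of the 4 windows. The counts with pretreatment were 0, 0 and 0 at 0, 3 and 8 h of LPS, against 0, 6 and 4 at the same times without Dex. Pretreated lists were short throughout, with 75, 84 and 78 regions in all. Of the whole 3 h list, 0.598% met a region of the pretreated 3 h list, and of the whole 8 h list 0.582% met one of the pretreated 8 h list. Even in the highest quintile of the 3 h list by score the share was 1.89%. None of 6 and none of 4 therefore lie near the background, and absence after pretreatment was shared with nearly all regions of the lists. Depth and recovery of the pretreated libraries are unknown, and their part in the short lists was not tested.

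Late Dex left RelA at the strongest site of Nfkb1 and at that of Nfkb2. At the stronger Nfkb1 site the tag density was 25.2 with late Dex and 66.2 at 8 h without Dex, a ratio of 0.381. At the Nfkb2 site it was 25.2 with late Dex and 54.9 without, a ratio of 0.459. Each density is the highest of its own region, and whether both maxima at Nfkb2 lie at the same position is not known. Scores were 12.4 with late Dex against 42.3 without it at Nfkb1, and 15.01 with late Dex against 40.7 without it at Nfkb2. No region was listed with late Dex at the weaker Nfkb1 site or in the Rel window, where 8 h of LPS without Dex gave 29.1 and 26.0.

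That makes 2 of the 4 regions of 8 h listed with late Dex, against 11.1% of the whole 8 h list. The 2 kept belonged to the highest quintile of the 8 h list by score, where 41.0% were listed with late Dex. The weaker Nfkb1 site fell in quintile 4, with 8.99% listed, and the Rel site in quintile 3, with 1.32%. Over the 155 shared regions of the highest quintile the median ratio of late Dex to no Dex was 0.379, with quartiles of 0.327 and 0.494, and both subunit ratios lie within those quartiles. Seen from 3 h, 2 of the 6 regions were listed with late Dex, against 4.44% of the 3 h list. The counts depend on the overlap asked for. With at least 50% of both regions shared they fell to 1 of the 4 at 8 h and 0 of the 6 at 3 h, and with centres within 250 bp to 1 and 1. The Nfkb2 match, and with it the ratio of 0.459, was lost under both rules. The densities of 25.2 are equal as deposited, a value that 4 of the 250 late Dex regions shared.

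The late Dex region at Nfkb2 covered a part of the broad site. It ran from 46379728 to 46380251, 523 bp against 1551 bp at 8 h without Dex, and lay toward the higher coordinates, its centre 423.0 bp from that of the 8 h region and 473.5 bp from that of the 3 h region. At Nfkb1 it ran from 135333504 to 135333950, 446 bp against 741 bp without Dex, with its centre 1.5 bp from that of the 8 h region and 8.5 bp from that of the 3 h region. Both lay wholly inside the 8 h region, as did 88.0% of the 208 late Dex regions that met one of 8 h.

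**Figure D3:**
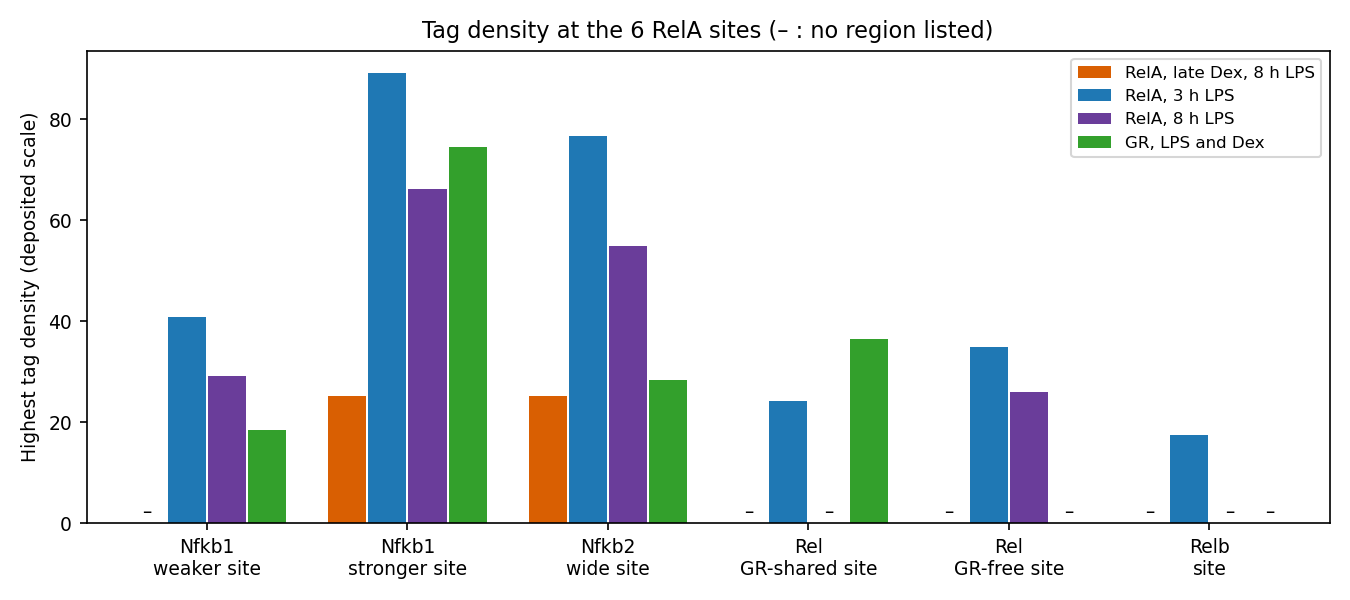
Highest tag density at the 6 RelA sites in the lists of RelA with late Dex, RelA at 3 h, RelA at 8 h and GR with LPS and Dex; a dash marks a site with no region in that list. Late Dex has bars of 25.2 at the stronger Nfkb1 site and the Nfkb2 site, and GR has none at the Relb site and at 1 of the 2 Rel sites.

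GR was listed at more places in these windows with LPS and Dex than with Dex. With both agents 12 regions were listed, 0.0232% of a list of 51639, and with Dex 1, 0.00181% of a list of 55196. The lists were of like length but not of like density. Regions with a tag density of at least 10 numbered 16612 with both agents and 4018 with Dex. In windows wider by 25 kb the counts were 18 with both agents and 6 with Dex. With LPS and Dex the Nfkb1 window held 5, the Nfkb2 window 3, the Rel window 4 and the Relb window none. The region with Dex was chr3:135372326-135372615 in the Nfkb1 window, with a tag density of 3.58. It met no region of the other GR list, where 35.2% of all regions of the Dex list did.

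All 12 regions with LPS and Dex had a tag density of at least 10, the level that 32.2% of that list reached. Their densities had a median of 18.3 and ran from 10.8 to 74.6. By contrast the list as a whole had a median of 4.01. None of the 12 met a region of the Dex list, against 37.7% of the whole list and 22.9% of its 16612 regions of density 10 or more. This count depends on the window edges, since 3 of 18 met one in windows wider by 25 kb, 2 beside Relb and 1 beside Rel. In the Dex list, 7.28% of regions reached a density of 10, and none of them lay in a window.

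The strongest GR region of the 4 loci coincided with the strongest RelA site. At chr3:135333360-135334075 the tag density of GR was 74.6 with a score of 58.0, rank 832 of 51639 by density, and its centre lay 1.0 bp from that of the 3 h RelA region. At the weaker Nfkb1 site GR had a density of 18.4, with its centre 20.5 bp away. Over all overlapping pairs of the 3 h list and this GR list, the median distance was 55.0 bp.

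The broad Nfkb2 site held 2 GR regions. The larger, chr19:46379697-46380285, had a density of 28.3 with a score of 21.2, and the smaller, chr19:46379069-46379418, had 13.0 with a score of 10.7. Their centres were 475.0 and 272.5 bp from the centre of the 3 h RelA region. The late Dex RelA region, in contrast, was centred 1.5 bp from the larger GR region and did not reach the smaller one. Of all 3 h RelA regions, 0.817% met 2 or more GR regions of this list.

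At Rel, GR was listed at the site with the lower RelA density. The site with RelA of 24.2 at 3 h had a GR density of 36.4, the second highest of the 12, with centres 55.5 bp apart. The site with RelA of 34.9 had no GR region in either list, although it was the Rel site that RelA still held at 8 h. The Relb site met no GR region.

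In all, 4 of the 6 RelA regions of 3 h met GR with LPS and Dex, against 61.9% of the 3 h list, and 3 of the 4 at 8 h, against 85.7% of the 8 h list. Both late Dex regions met it, against 91.6% of that list. These counts lie near the background. GR with Dex met none of the 6 and none of the 4, where 17.7% and 18.5% of the lists did. RelA and GR lists came from cells treated differently, since RelA at 3 and 8 h was without Dex. The cells were also fixed differently, with formaldehyde alone for RelA and with disuccinimidyl glutarate before formaldehyde for GR.

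From the side of GR, 5 of the 12 regions with LPS and Dex met a 3 h RelA region. Of these 5, 2 lay in the same broad RelA region of Nfkb2, 1714 bp wide. The share was 6.05% in the whole GR list and 18.5% among its regions of density 10 or more. The 5 had densities of 13.0 to 74.6 with a median of 28.3, and the 7 without RelA had 10.8 to 35.0 with a median of 14.98. In the whole list the medians above a density of 10 were 33.1 with RelA and 20.1 without. Of the 5, 4 lay wholly inside the RelA region, among them the 2 in the broad Nfkb2 region, and the exception was that of Rel. Among all 3126 such GR regions, 19.8% did. The RelA regions around the 4 were wide for the 3 h list, whose median width was 538 bp. Those of Nfkb1 were 967 and 752 bp, with 95.2% and 82.3% of the list narrower. Any part of width in this count was not tested.

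The 7 regions of the LPS and Dex list at sites without RelA were spread over 3 windows, and the further GR site without RelA was that of the Dex list in the Nfkb1 window. In the Rel window chr11:23595724-23596312 had a density of 35.0, close to the 36.4 of the site shared with RelA, and lay 58.4 kb from it. Between the RelA sites of that window stood chr11:23662607-23663093 with 18.2 and chr11:23667746-23668152 with 11.6, so that GR and RelA sites followed each other within 17.0 kb. In the Nfkb1 window chr3:135382802-135383407 had 22.9, chr3:135321598-135322070 had 14.98 and chr3:135216832-135217231 had 10.8. The second of these lay between the RelA sites, 11.9 kb from the stronger. In the Nfkb2 window chr19:46375662-46376153 had 13.4 and lay 3.61 kb from the RelA site.

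**Figure D4:**
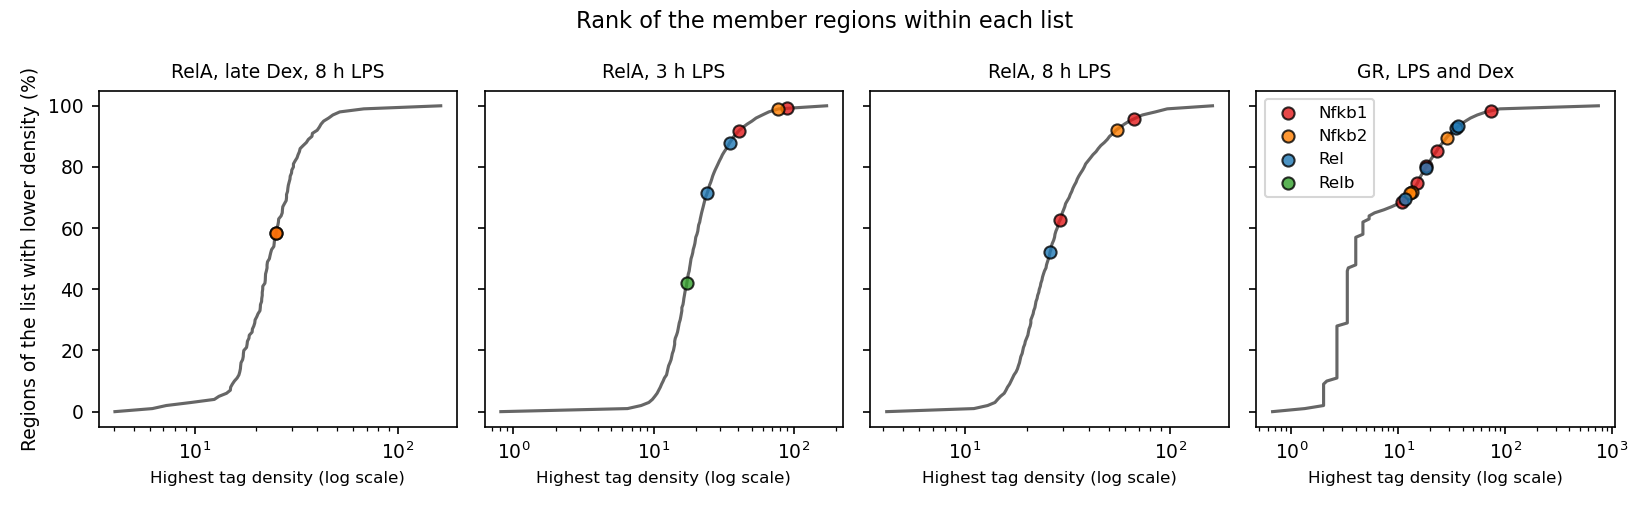
Highest tag density (x axis, log scale) against the percentage of regions in the same list with a lower density (y axis) for 4 lists, with the regions of the 4 windows as coloured points on the curve of the whole list. At 3 h the points run from 42.2% at Relb to 99.3% at the stronger Nfkb1 site, and in the GR list all 12 lie at or above 68.6%.

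The windows end at fixed positions, and GR regions stood just outside. Within 25 kb of the windows there were 6 further GR regions with LPS and Dex, 5 with Dex, and no further RelA region in any list. The nearest to an edge was chr7:20260996-20261709 beyond the Relb window, with a density of 54.2 with LPS and Dex, and chr7:20261032-20261670 in the Dex list had 22.7. Beside it chr7:20269021-20269629 had 50.4 with LPS and Dex, and an overlapping region had 22.0 with Dex. Beyond the Rel window chr11:23723183-23723748 had 23.4 with LPS and Dex, and an overlapping region had 11.9 with Dex. These 3 places were the ones within 25 kb that both GR lists held. The densities of 54.2 and 50.4 exceed those of all but 1 GR region inside the windows, so that the absence of GR from the Relb window, and of shared GR regions from the Relb and Rel windows, depends on where the edges were set.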

How the data were processed

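RelA and GR ChIP-seq lists of 10 libraries were used, grouped by the sample titles. The deposited name of the RelA library titled 0 h of LPS carries 3 h. Times in other deposited names also differ from the titles, in form at least, and the titles were followed. Cells for RelA were fixed, per the labels' protocols, with 1% formaldehyde for 10 min, and cells for GR with 2 mM disuccinimidyl glutarate for 30 min before it. Chromatin was sheared to 400 to 500 bp and read as 51 nt single ends. Per the submitters' processing notes, CASAVA and mm9 were used. Depth, the caller of regions and its threshold are not given in the sources used here.

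Each deposited list gives, per the file headers, the highest and mean tag density as signal values, a z-score, and a p-value that the authors printed as 0 where very small; scaling and input subtraction are not stated. Positions are as deposited on mm9, and widths are end minus start.

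Regions overlapping the windows were collected with Python 3.11.15 and pandas 2.3.3, and lists were joined at an overlap of at least 1 bp. Regions overlapping input were kept and marked. Percentages of whole lists are the background; quintiles are by the authors' score. Densities were compared within a list, or as ratios set against all shared regions. Overlap code was tested on simulated regions. Every site with RelA was named, and of sites with GR but no RelA those of density 10 or more. The only region of the Dex list in the windows, with a density of 3.58, was named besides. The members, motifs and thresholds were chosen with earlier results of these data known. With no gene annotation on mm9, other genes of the pathway were not placed and regions were not called promoter or intron. Alternatives were stricter overlap, score and density limits, merging and wider windows.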

Additional observations from a re-analysis of the deposited data

How the results depend on the processing

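Over 19 counts and 79 alternatives, 68 values stayed within 1.5 times the count given. Many of these were counts of 0, which stricter limits, stricter overlap or merging could not raise. The counts of 0 with pretreatment and at 0 h could have changed only in windows wider by 25 kb, where each stayed 0. Above each list's median score, 1 late Dex region and 6 GR regions with LPS and Dex remained in the windows. A tag density of at least 15 left 7 GR regions with LPS and Dex, and densities of at least 5, 10 and 15 each left 0 with Dex. Windows wider by 25 kb held 6 GR regions with Dex, against 18 with LPS and Dex. With at least 50% of both regions shared, late Dex regions met 0 of the 6 RelA regions of 3 h and 1 of the 4 of 8 h, and with centres within 250 bp 1 and 1. The Nfkb2 match was lost under both rules, and the Nfkb1 match with the 3 h region at 50%. No paired analysis was possible because each condition had 1 library. Absence from a list was limited by unknown depth and thresholds.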
